A study of Mus musculus with 3 samples.

Results

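The genes described here encode 10 cell surface proteins. Some are used to sort or recognise compartments of the mouse hair follicle and epidermis, and others are included as relatives from the Ly6 gene family. They were chosen by symbol from the 44625 gene entries of the expression table: Cd34, Cd200, Ly6a, Ly6c1, Ly6d, Ly6e, Ly6g6c, Lypd3, Plet1 and Epcam. All 10 were found, each as 1 entry. RNA was measured by sequencing of polyadenylated RNA in 3 libraries of back skin cells from WT mice aged 56 days, in the second telogen, the resting phase of the hair cycle. The cells are labelled Alpha6+/Sca1-, that is, carrying integrin alpha6 and lacking Sca1, and no treatment is given. The 3 libraries form 1 group, and the labels speak of biological duplicates while there are 3 libraries, so the spread between them may be partly technical. An antibody to integrin alpha6 is named in the labels' sorting protocol, and none to Sca1 is named there.

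CD34 is a sialomucin on haematopoietic progenitors, endothelium and, in the mouse, the keratinocytes of the bulge, the stem cell niche of the follicle. CD200 is a membrane glycoprotein that signals to an inhibitory receptor on myeloid cells and is also a bulge marker. Sca1, the product of Ly6a, marks interfollicular epidermis and the uppermost follicle, and its absence is used to set aside those cells in a sort. Ly6a belongs to the Ly6/uPAR family, small and mostly GPI-anchored proteins with a disulfide-stabilised fold, many of them encoded side by side in a cluster on chromosome 15.

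Replicate 1 was the shallowest library with 29283936 counts, replicate 2 had 35264901 and replicate 3 had 39198620. Replicate 1 stood apart: among 13663 genes with a mean of at least 1 TPM (counts per gene length, brought to the same total in each library), 59.6% had their highest value there. The share was 20.0% for replicate 2 and 20.4% for replicate 3. Some values that rest on it are therefore also given without it. The cell type label was checked against defining genes. All 8 hair follicle stem cell markers and all 5 basal keratinocyte markers examined reached 1 TPM in every library. The 8 suprabasal epidermis markers summed to 3673, 4844 and 7733 TPM, so RNA of differentiating keratinocytes was present in the sorted cells. The 6 endothelial markers summed to 0.239, 0.299 and 0.373 TPM, with Cdh5, Emcn and Cldn5 at 0 counts in all libraries. The 5 fibroblast markers summed to 0.593, 0.511 and 0.515 TPM, with Lum and Dpt at 0 counts. The 6 sebaceous gland markers summed to 151, 156 and 230 TPM and the 5 melanocyte markers to 59.1, 41.4 and 35.5 TPM. Most of the melanocyte sum was Mitf, with 44.4, 28.5 and 24.0 TPM. In such bulk RNA, fewer cells of a type and less RNA per cell cannot be told apart.

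The Ly6 genes next to each other on chromosome 15 are close copies, which bears on how far reads can be assigned to 1 of them. Between the coding sequence of Ly6a and those of Ly6i, Ly6g, Ly6c1 and Ly6c2, 86.3%, 83.1%, 81.8% and 81.6% of aligned bases were identical. Ly6c1 and Ly6c2 shared 97.7%, with an identical run of 188 bases. The more distant members differed widely from Ly6a, with an identity of 52.2% for Ly6e, 49.3% for Ly6d and 47.8% for Ly6g6c. The 60-base coding window in which the copies differ least from Ly6a lies in a single exon near the end of the coding sequence (GRCm38; minus strand, Ly6a at chr15:74995271-74995330, Ly6c1 at chr15:75045411-75045470, Ly6c2 at chr15:75108552-75108611 and Ly6i at chr15:74979923-74979982; plus strand, Ly6g at chr15:75158671-75158730). It is shown 5′ to 3′ from the GENCODE M21 transcripts, with bases that differ from Ly6a in capitals, because a read of this length would fit several genes with few mismatches.
Ly6a: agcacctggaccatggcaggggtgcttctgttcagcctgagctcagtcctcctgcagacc
Ly6c1: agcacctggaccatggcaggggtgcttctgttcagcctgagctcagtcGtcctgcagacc
Ly6c2: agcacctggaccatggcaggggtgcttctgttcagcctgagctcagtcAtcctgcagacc
Ly6i: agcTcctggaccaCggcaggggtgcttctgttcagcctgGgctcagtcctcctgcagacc
Ly6g: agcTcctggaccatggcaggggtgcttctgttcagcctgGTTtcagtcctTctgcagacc
In this window Ly6c1 and Ly6c2 each differ from Ly6a at 1 base, Ly6i at 3 and Ly6g at 5.

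The window in which the copies differ most from Ly6a spans an exon junction in the middle of the coding sequence (between chr15:74995438-74996469 for Ly6a), and is shown in the same way because reads from it can be told apart.
Ly6a: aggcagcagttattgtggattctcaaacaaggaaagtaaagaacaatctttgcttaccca
Ly6c1: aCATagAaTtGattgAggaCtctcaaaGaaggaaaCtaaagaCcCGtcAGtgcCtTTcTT
Ly6c2: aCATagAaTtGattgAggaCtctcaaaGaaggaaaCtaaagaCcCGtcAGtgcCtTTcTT
Ly6i: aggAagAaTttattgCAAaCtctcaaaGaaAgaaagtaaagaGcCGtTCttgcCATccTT
Ly6g: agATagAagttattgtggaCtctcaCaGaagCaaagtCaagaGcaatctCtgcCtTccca
Here Ly6c1 and Ly6c2 differ from Ly6a at 20 bases and carry the same letters as each other, so this window separates Ly6a from them but not Ly6c1 from Ly6c2.

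Over whole transcripts, every run of 50 bases of each gene was looked up in the transcripts of all other genes, on both strands. Ly6c1 shared 32.8% of its runs with another gene and Ly6a shared 19.0%. For Ly6c1 the partners were Ly6c2 with 21.5% of the runs, Ly6a with 11.1% and Ly6i with 0.227%. With runs of 100 bases the shares were 10.1% for Ly6c1 and 1.45% for Ly6a, and the read length is not given in the sources used here. For Ly6a, 195 of the 1297 50-base runs occurred in Ly6c1 and 31 in Ly6i. Ly6d, Ly6e, Ly6g6c, Cd200 and Epcam shared no run of 50 bases, so no other annotated transcript matches them at that length. For Lypd3 (8.13% shared), Plet1 (9.85%) and Cd34 (2.14%), the largest partner was an antisense gene on the opposite strand, Gm26550, Plet1os and Gm16897 in turn. Since the strand setting of the counting was not stated, reads of these pairs may not have been separated. The antisense genes had means of 7.76, 4.74 and 9.65 TPM, all below the member they overlap.

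**Figure D1:**
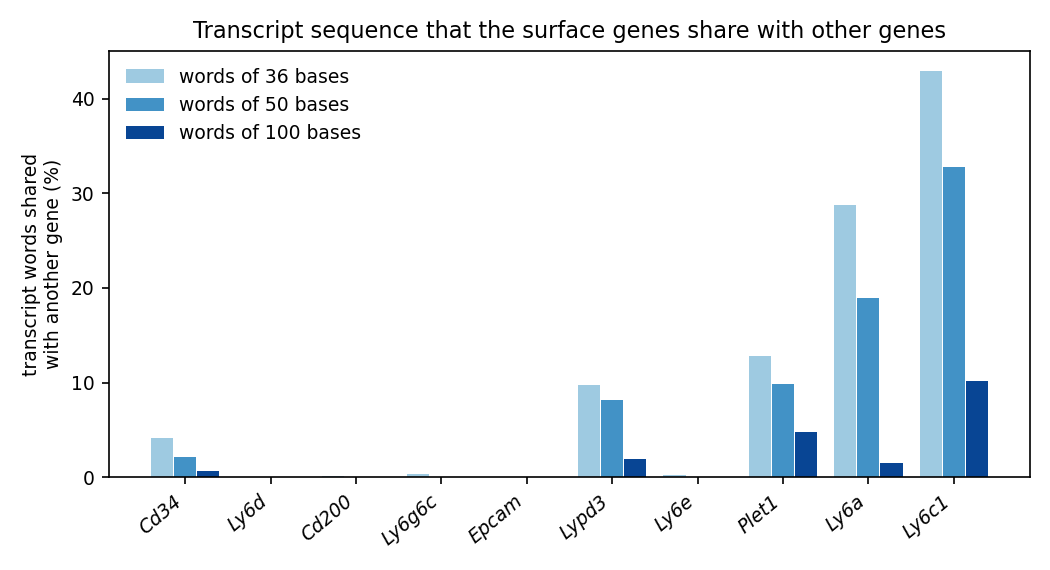
Percent of all distinct runs of 36, 50 or 100 bases in a gene's GENCODE M21 transcripts that also occur in a transcript of another gene (vertical axis), for the 10 surface genes (horizontal axis). Ly6c1 and Ly6a have the highest bars for runs of 50 bases, 32.8% and 19.0%, and 5 genes have none.

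Cd34 was the highest of the surface genes. Replicates 1, 2 and 3 had 472, 552 and 581 TPM. The mean was 535 ± 56.8 TPM (SD, n = 3), resting on 37070 to 65370 counts per library. This placed it above 98.5% of genes with a mean of at least 1 TPM, and its spread lay at the percentile of 46.6 among the 500 genes nearest in level, close to the middle. Cd34 lies on chromosome 1 (194938819 to 194961279, plus strand) with few active neighbours: 1 of the 11 other genes within 100 kb that are in the table reached 1 TPM in every library.

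Cd200 (chromosome 16, 45382135 to 45409053, minus strand) had 233, 153 and 229 TPM, a mean of 205 ± 44.7 TPM (SD, n = 3). Replicate 2 was low and the others were alike. None of the 3 genes within 100 kb reached 1 TPM in every library, including Btla on its lower side with a mean of 0.0285 TPM.

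The general epithelial and upper follicle markers had lower means than Cd34 and Cd200, although Epcam exceeded Cd200 in replicate 2. Epcam, a homophilic adhesion molecule of epithelia that is also found on Langerhans cells, had 207, 163 and 155 TPM, a mean of 175 ± 28.1 TPM (SD, n = 3; chromosome 17, 87635979 to 87651129, plus strand). The Langerhans cell gene Cd207 had 0.671, 0.480 and 0.383 TPM. Plet1, which encodes the antigen of the MTS24 antibody and marks keratinocytes of the upper follicle, had 55.5, 41.5 and 30.3 TPM, a mean of 42.4 ± 12.6 TPM (SD, n = 3; chromosome 9, 50494525 to 50505482, plus strand). Both were highest in replicate 1 and lowest in replicate 3, with a high to low ratio of 1.83 for Plet1 and 1.34 for Epcam. Without replicate 1 the means were 35.9 TPM for Plet1 and 159 TPM for Epcam.

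Ly6a, whose product the sorted cells are labelled as lacking, had 41, 191 and 167 counts (chromosome 15, 74994877 to 74998031, minus strand). Replicate 1 had 3.16 TPM, with a 95% exact Poisson interval of 2.27 to 4.28. Replicate 2 had 11.6 TPM (9.99 to 13.3), and replicate 3 had 8.99 TPM (7.67 to 10.5). The interval of replicate 1 did not overlap the others, so that library was low beyond counting error, which is all these intervals cover. The mean was 7.91 ± 4.31 TPM (SD, n = 3), and 10.3 ± 1.83 TPM (SD, n = 2) without replicate 1. Ly6a thus lay above 34.8% of genes with a mean of at least 1 TPM, and its SD on the log2(TPM + 1) scale, 0.84, was the largest of the 10 genes.

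Ly6c1, a marker of monocytes, endothelium and some T cells, was the lowest, with 5, 29 and 12 counts or 0.277, 1.26 and 0.464 TPM, a mean of 0.668 ± 0.524 TPM (SD, n = 3; chromosome 15, 75044018 to 75048830, minus strand). Without replicate 2 the mean was 0.370 TPM. Replicate 2 was highest, as for Ly6a, and its interval of 0.846 to 1.81 TPM did not overlap that of replicate 1, 0.0898 to 0.646 TPM. The copies Ly6c2, Ly6i and Ly6g were not counted once in any of the libraries; taking 3 counts as the limit of a count of 0, levels of up to 0.102, 0.241 and 0.295 TPM are compatible with that. These zeros and the Ly6c1 counts are uncertain, because how reads that fit several genes were counted was not stated. Of the 8 immune markers examined, 5 were highest in replicate 2 as well, and the sum of the 8 was 10.9, 20.3 and 12.6 TPM. Most of that sum was Cd74 (8.22, 14.3 and 9.52 TPM) and H2-Aa (1.93, 4.68 and 2.63 TPM). Lyz2 was at 0 counts in all libraries, and Ptprc had 0, 0 and 5. The part of immune cells in the Ly6a and Ly6c1 values was not tested.

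The other Ly6 relatives among the surface genes were far more abundant than Ly6a. Ly6d, a small GPI-anchored protein of stratified epithelia, had 513, 419 and 523 TPM, a mean of 485 ± 57.2 TPM (SD, n = 3; chromosome 15, 74762056 to 74763620, minus strand). The genes on either side of it, Lynx1 and D730001G18Rik, had means of 2.75 and 2.65 TPM, so the high level did not extend to its neighbours. Ly6e, an interferon-inducible and broadly expressed member, had 39.9, 45.7 and 51.4 TPM, a mean of 45.7 ± 5.79 TPM (SD, n = 3; chromosome 15, 74955051 to 74959905, plus strand). Its neighbour Ly6i, on the upper side, was at 0 counts.

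Ly6g6c, encoded in the class III region of the major histocompatibility complex, had 140, 158 and 248 TPM, a mean of 182 ± 58.0 TPM (SD, n = 3; chromosome 17, 35065388 to 35070050, plus strand). Replicate 3 was high and the others lay close together. Of the 28 other genes within 100 kb, 15 reached 1 TPM in every library, so unlike the chromosome 15 genes it sits among active genes, with Ddah2 at 121 TPM on one side and Ly6g6d at 0.285 TPM on the other. Lypd3, also known as C4.4A and typical of suprabasal keratinocytes, had 99.1, 158 and 155 TPM, a mean of 138 ± 33.3 TPM (SD, n = 3; chromosome 7, 24636550 to 24641118, plus strand). Replicate 1 was low, and without it the mean was 157 TPM.

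**Figure D2:**
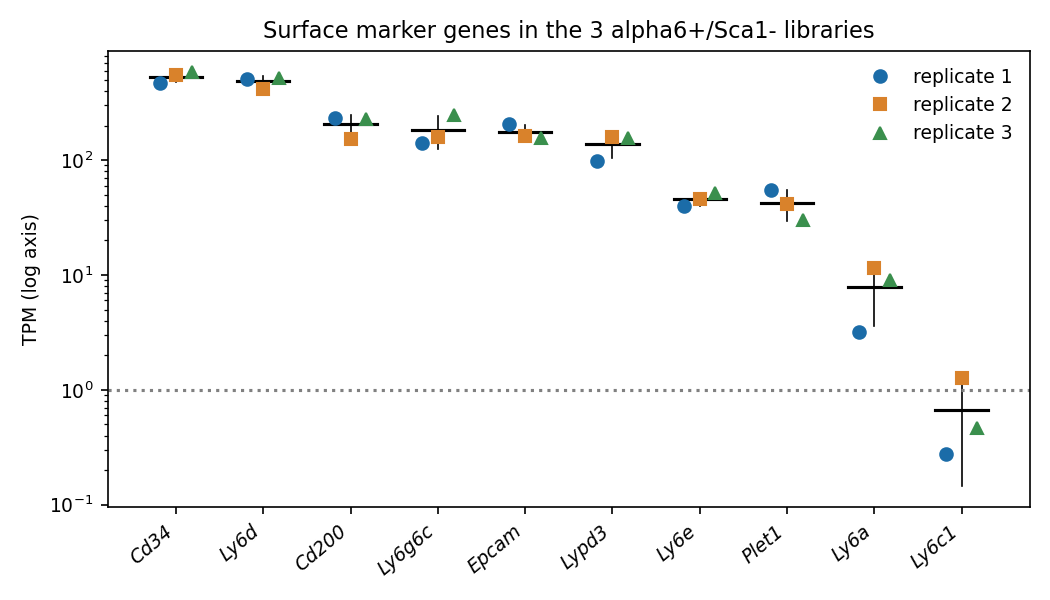
TPM of each surface gene (vertical log axis) in replicates 1 to 3 (points), with the mean (horizontal bar) and SD (vertical line, n = 3); the dotted line marks 1 TPM. Cd34 and Ly6d lie near 500, 6 genes lie below them, and Ly6a and Ly6c1 lie apart below 12 TPM.

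In order of mean TPM the genes ran Cd34, Ly6d, Cd200, Ly6g6c, Epcam, Lypd3, Ly6e, Plet1, Ly6a, Ly6c1. Neighbours in this order were compared within each library on the log2(TPM + 1) scale. Of the 9 neighbour pairs, 4 had the same order in all 3 libraries and a mean difference above its SD. These were Ly6d over Cd200 (1.26 ± 0.16), Lypd3 over Ly6e (1.55 ± 0.24), Plet1 over Ly6a (2.39 ± 1.19) and Ly6a over Ly6c1 (2.32 ± 0.55). For each of them the exact permutation test over sign flips (two-sided) gave p = 0.25, the lowest value this test can reach with 3 libraries, and 0.5625 after Benjamini-Hochberg adjustment over the 9 pairs. Cd34 and Ly6d did not differ beyond their spread (0.14 ± 0.26). Cd200 over Ly6g6c (0.19 ± 0.47), Ly6g6c over Epcam (0.02 ± 0.62), Epcam over Lypd3 (0.37 ± 0.60) and Ly6e over Plet1 (0.14 ± 0.61) did not either. The pairs and their direction were taken from these same libraries, so this condition is a description and not a test. By it the genes lay as a top pair, a middle 4, a lower pair, then Ly6a and last Ly6c1. Without replicate 1, Cd200 and Ly6g6c exchanged places and 7 of the 9 pairs in the new order met the same condition. Without replicate 3, 4 positions changed: Epcam stood above Ly6g6c and Plet1 above Ly6e.

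The bulge marker Cd34 exceeded Ly6a by 6.83, 5.46 and 5.87 in replicates 1 to 3 on the log2(TPM + 1) scale, a mean of 6.05 ± 0.70 (SD, n = 3). Cd200 exceeded Ly6a by 4.65 ± 1.10, Epcam by 4.44 ± 1.05 and Plet1 by 2.39 ± 1.19. All 4 genes were above Ly6a in 3 of 3 libraries (p = 0.25 each by the same exact test, 0.25 after Benjamini-Hochberg adjustment over the 4). The cells are labelled as lacking the product of Ly6a, so this direction could be foreseen and the test is no independent support. All 4 differences were largest in replicate 1, where Ly6a was lowest; without replicate 1 they were 5.66, 4.07, 3.84 and 1.70.

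The distance between Cd34 and Ly6d depended on the gene length. The authors' TPM for Cd34 divides by 7290 bases, the summed length of all annotated exons, while its principal transcript in GENCODE M21 is 2454 bases long. Ly6d has 1 annotated transcript, and both lengths are 744 bases. With principal transcript lengths for all genes, an alternative chosen after the data were seen, Cd34 had 1181 ± 141 TPM and Ly6d 360 ± 40.2 TPM (SD, n = 3). Among 13663 genes the change of length moved TPM by a median factor of 0.857, and Cd34 by 2.21. The order of the 10 genes by mean TPM was then the same, with 6 of the 9 neighbour pairs separated.

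Across libraries the surface genes did not move together. Ly6g6c was highest in replicate 3, above its 3-library mean by 0.49 on the log2(TPM + 1) scale, and so was the summed suprabasal list, by 0.58. Of the 8 suprabasal markers, 7 were highest in replicate 3. Lypd3 departed from that list, with deviations of -0.44, 0.23 and 0.20 against -0.49, -0.09 and 0.58. The bulge markers differed from each other, with Cd34 at -0.18, 0.05 and 0.13 and Cd200 at 0.21, -0.39 and 0.18. The summed hair follicle stem cell list deviated by -0.17, 0.12 and 0.05. Plet1 was above its mean by 0.42 in replicate 1 and below it in replicate 3, with a deviation of -0.43. The summed upper follicle list (Krt17, Krt79, Lrig1, Lgr6, Defb6 and Cst6) had 4715, 4242 and 3220 TPM and was highest in replicate 1 and lowest in replicate 3. Most of that sum was Krt17 (4014, 3719 and 2763 TPM), and 3 of the 6 genes had their highest value in replicate 1, 2 in replicate 2 and 1 in replicate 3. Ly6c1 deviated by -0.34, 0.48 and -0.14, Ly6a by -0.95, 0.64 and 0.31, and the summed immune list by -0.34, 0.50 and -0.15. Most of the immune sum was Cd74. These are 3 libraries with no condition between them, and the part of cell composition in these deviations was not tested. In all, replicate 1 held the highest value of 3 of the 10 genes, replicate 2 that of 3 and replicate 3 that of 4.

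**Figure D3:**
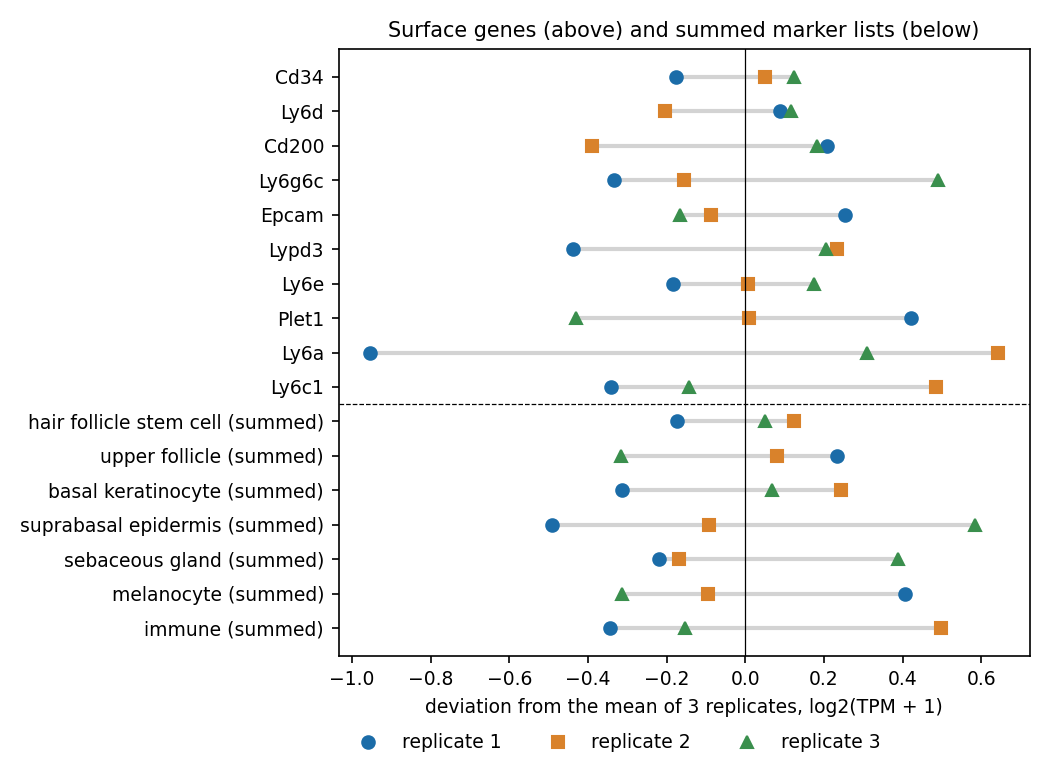
Deviation of each replicate from the 3-replicate mean on the log2(TPM + 1) scale (horizontal axis) for the 10 surface genes (above the dashed line) and for the summed TPM of marker lists (below it). Ly6a spreads most, with replicate 1 at -0.95 and replicate 2 at 0.64, while the points of Cd34, Ly6d and Ly6e lie close together.

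Of the 42 Ly6/uPAR family genes listed, 38 were in the table, 13 reached 1 TPM in every library and 13 had 0 counts in all. The 13 include Ly6d, Ly6g6c, Lypd3, Ly6e and Ly6a. Of the 32 other family genes in the table, the highest was Cd59a, an inhibitor of the complement attack complex, with 69.8 ± 11.9 TPM (SD, n = 3). Lypd5 had 16.2, 29.4 and 69.0 TPM and was highest in replicate 3, as were 7 of the 8 suprabasal markers. Lypd6b had 25.9 ± 3.50 TPM, Ly6g6e 16.9 ± 5.99 TPM and Lypd6, a modulator of Wnt signalling, 14.7 ± 2.84 TPM (SD, n = 3). Cd59b, Pinlyp and Lynx1, a modulator of nicotinic acetylcholine receptors, had 5.47, 5.04 and 2.75 TPM on average. Slurp1, a secreted keratinocyte protein, had 7, 40 and 104 counts, and Ly6g5b had 23, 22 and 0.

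In the chromosome 15 cluster from Psca to Ly6g, 4 of the 15 family genes reached 1 TPM in every library: Lynx1, Ly6d, Ly6e and Ly6a. Another 6 had 0 counts in all, among them the copies Ly6c2, Ly6i and Ly6g. In the authors' deposited H3K27me3 column, a value per gene for a histone mark associated with repression and with no stated unit, all 10 surface genes had 0. So did 96.7% of genes with a mean of at least 1 TPM and 91.9% of all genes. Ly6i, Gm8000 and Gm37042, which lie between Ly6e and Ly6a, shared a value of 9418, and all 3 had 0 counts. Over the family, Ly6h with 10193 and Lypd1 with 11900 had a value above 0 as well, and neither reached 1 TPM in any library.

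**Figure D4:**
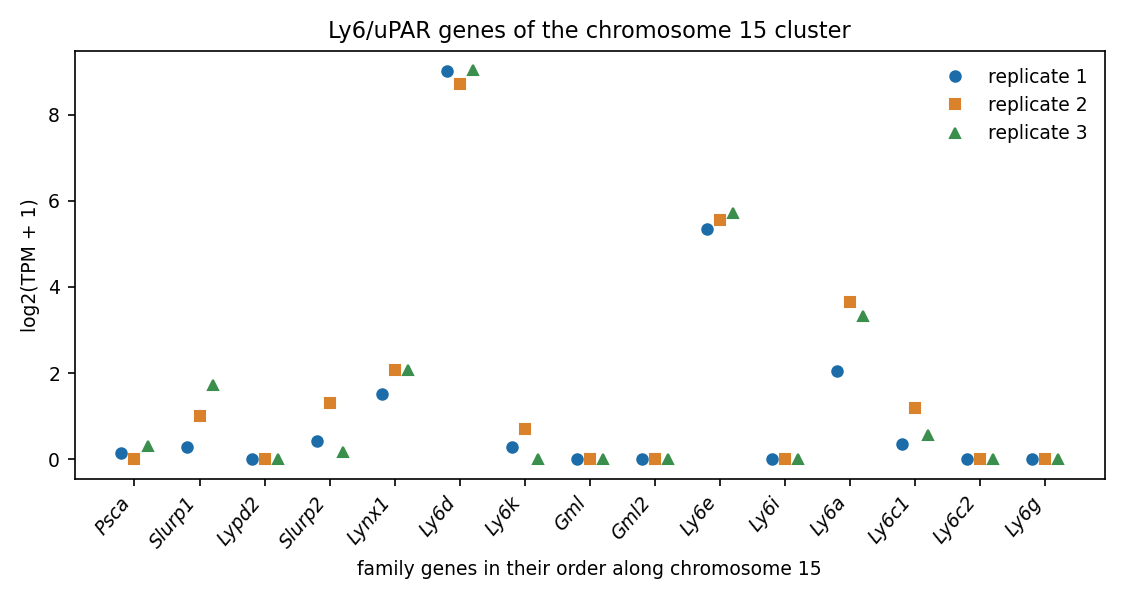
Level of the 15 Ly6/uPAR family genes in the chromosome 15 cluster (vertical axis, log2(TPM + 1)), in their order along the chromosome (horizontal axis, not to scale), with 1 point per replicate. Ly6d stands near 9 and Ly6e near 5.5, with genes at or near 0 between and beside them.

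Of the 20 other surface proteins of skin epithelium, 18 reached 1 TPM in every library. Cd9, a tetraspanin, was highest with 1240 ± 182 TPM (SD, n = 3), above Cd34. Itgb4, Cdh1 and Cd24a had means of 365, 354 and 324 TPM, and Itgb1, Itga3, Nt5e and Lgr6 had 236, 151, 126 and 123 TPM. The means of Cd34, Ly6d, Cd200, Ly6g6c, Epcam and Lypd3 lie within the range of these 8. The lowest were Il1r2 with 6.48 TPM, Prom1 with 0.272 TPM and Kit with 0.171 TPM.

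The authors' deposited table also holds a log2 fold change and an adjusted p-value per gene. Going by the column names, the other side of the comparison is bulge libraries, which were not analysed here, and a positive value means higher in the Alpha6+/Sca1- libraries. Of the 10 surface genes, 7 had an adjusted p-value under 0.05 in the authors' deposited table, against 55.5% of the 20274 entries with one. A call by itself was thus common. Of the 10, 6 were called higher, against 23.6% of all entries, and 1 was called lower, against 32.0%. Among genes with a mean of at least 1 TPM, 60.8% were called and 35.1% were called higher, against 7 and 6 of the 10. Of the 10, Ly6c1 lies below that level and was not called. At an adjusted p-value under 0.01 in the authors' deposited table, 5 of the 10 were called, against 46.1%. With an absolute log2 fold change of at least 1 added to the 0.05 threshold, 6 were called, against 46.3%. The median log2 fold change was 1.31 over the 10 genes and -0.36 over all genes with an adjusted p-value.

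Ly6d and Lypd3 had the largest values. In the authors' deposited table Ly6d had a log2 fold change of 3.65 (adjusted p-value 4.91e-44) and Lypd3 one of 3.02 (4.06e-17). Among the other genes called higher, Epcam had 1.57 (1.17e-14), Cd34 1.33 (4.70e-07), Ly6e 1.29 (2.49e-05) and Plet1 0.64 (0.0346) in the authors' deposited table. Cd34, the bulge marker, was thus called higher in the Alpha6+/Sca1- libraries than in those taken to be from the bulge. Ly6a was the only one of the 10 called lower in the authors' deposited table, with -1.44 (adjusted p-value 0.0148). For Cd200, Ly6g6c and Ly6c1 the authors' deposited table gave 0.20, 0.29 and 1.95 with adjusted p-values of 0.427, 0.463 and 0.203, none of them called.

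Marker lists in the same comparison gave these counts in the authors' deposited table. All 8 suprabasal markers and 5 of the 6 upper follicle markers were called higher, against 23.6% of all entries. Their median log2 fold changes were 3.21 and 4.16. Of the 8 hair follicle stem cell markers, 2 were called higher and 3 lower, against 23.6% and 32.0% of all entries. Both stem cell counts were thus near the background, and the median was -0.05. Ly6d and Lypd3 (3.65 and 3.02 in the authors' deposited table) lay near the suprabasal median, and Cd34 (1.33) lay above the stem cell median. The part of differentiated and upper follicle cells in the values of the 10 genes was not tested. Of the 32 other family genes in the table, 13 had an adjusted p-value in the authors' deposited table. Among those 13, 6 were called higher, against 23.6% of all entries with an adjusted p-value, and 0 lower, against 32.0%. For entries with a mean of at least 1 TPM, a level Ly6h does not reach, the share called higher was 35.1%. The 6 were Pinlyp at 3.78, Slurp1 at 3.40, Ly6g6e at 3.24, Ly6h at 2.92, Lypd6b at 0.68 and Cd59a at 0.66 in the authors' deposited table. Of the 20 other surface genes, 7 were called higher in the authors' deposited table, among them Cd9 with 1.53 and Itga3 with 0.81. Set beside the 35.1% called higher among genes with a mean of at least 1 TPM, that count is at the background. Called lower in the authors' deposited table were 5 of the 20, against 32.0% of all entries. These were Cd47 with -2.54, Egfr with -1.65, Lgr5 with -1.47, Cd44 with -0.96 and Cd24a with -0.96.

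**Figure D5:**
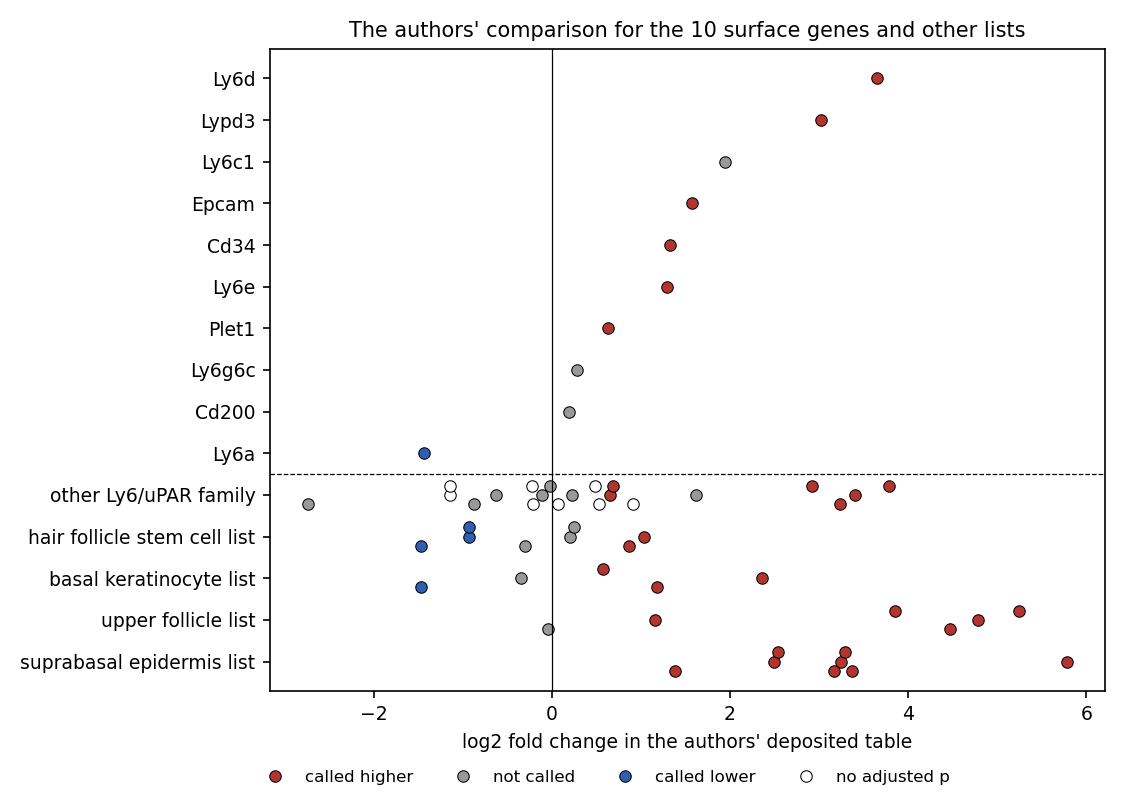
Log2 fold change from the authors' deposited table (horizontal axis; positive means higher in the Alpha6+/Sca1- libraries) for each surface gene (above the dashed line) and for the genes of other lists (below it), coloured by whether the adjusted p-value was under 0.05. Ly6d and Lypd3 lie above 3 and Ly6a is the only surface gene called lower, at -1.44.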

How the data were processed

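The RNA of 3 libraries was analysed from 1 deposited table. It holds, per the file headers, whole-number counts per gene and TPM made by the authors from counts and gene length; TPM recomputed from the counts and lengths differed by at most 4.72e-06. The log2 fold change, its adjusted p-value, an H3K27me3 value and a score were deposited by the authors; the score was not used. The submitters' processing notes name TopHat2, SAMtools, FastQC, DESeq2, DESeq and the builds mm10 and GRCm38, with no roles; the counting tool and its strand setting are not given in the sources used here. Another 6 columns of per-sample values match no sample and were not used. Of 2555 genes at 0 counts with a fold change, 2555 had a negative one, which settled its direction.

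Coordinates, transcripts and overlaps come from GENCODE M21 (GRCm38), by identifier. For 39485 of 44392 matched identifiers the deposited length equalled the summed exon length. For symbols with several entries the one with the highest mean TPM was kept. Coding sequences were aligned globally with Biopython 1.88. Levels were compared on the log2(TPM + 1) scale with exact sign-flip permutation tests. SDs were set beside those of the 500 genes nearest in mean level, also with scaling by TMM (edgeR 4.0.16) and size factors (DESeq2 1.42.0), a step tested on simulated data. Intervals and the limit of 3 counts that a count of 0 allows cover counting error only. Replicate numbers come from the titles.

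Named genes were the 10 members, family genes with a mean of at least 1 TPM (at most 12) and the close copies Ly6c2, Ly6g and Ly6i, the 8 highest and 3 lowest of the other surface genes, and the nearest neighbour on each side. Ly6h, Lypd1, Cd47, Egfr, Lgr5, Cd44, Gm8000, Gm37042, Cd207, Ptprc, Lyz2, Cd74, H2-Aa, Mitf and the antisense genes were named after their values were seen. The members and lists were chosen with earlier results of these data known.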

Additional observations from a re-analysis of the deposited data

How the results depend on the processing

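Over the alternatives run, the sign of the 4 log2 ratios to Ly6a held, and leaving out 1 replicate each gave 5.66 to 6.35 for Cd34, 4.07 to 5.17 for Cd200, 3.84 to 4.81 for Epcam and 1.70 to 2.76 for Plet1. The number of separated neighbour pairs was 4 to 7 of 9 with 1 replicate left out, the 7 coming without replicate 1. The median over the 10 genes was 156 TPM; it was 91.7 in CPM, which do not divide by gene length, and 116 TPM with principal transcript lengths. No gene reached the percentile of 90 in SD among genes of like level on the TPM scale, but 3 did (Ly6g6c, Lypd3 and Ly6a) with TMM and 3 with DESeq2 size factors, and 1 to 3 with 1 replicate left out; the cause was not tested. With runs of 36 bases, 5 of the 6 Ly6/uPAR members shared a run with another gene, against 3 with 50 or 100. Members called in the authors' deposited table numbered 5 at an adjusted p-value under 0.01, against 46.1% of entries with an adjusted p-value, and 6 with an absolute log2 fold change of at least 1, against 46.3%. Of 82 values of single genes under alternatives, 23 moved by more than the replicate SD (for shares of runs, by any amount) and 59 did not. No analysis paired between conditions was possible because the libraries form 1 group, while genes were compared with each other within each library. Depth limits Ly6c1 (5 to 29 counts) and the genes at 0, and the sign-flip test over 3 libraries cannot give a p below 0.25.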
